A study of Mus musculus with 12 samples.

Results

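RNA-seq was analysed here for the mitochondrially encoded genes of cytochrome c oxidase (COX1, COX2 and COX3) and of ATP synthase (ATP8 and ATP6). They were taken from the deposited table by their upper-case gene names, which gave 5 of its 584 genes. The libraries were made from hippocampal RNA of male wild-type C57BL/6 mice, weaned at 3 weeks of age and sampled at 8 weeks. For the 5 weeks between, the mice had lived in standard cages (SH, 3 libraries) or in an enriched environment (EE, 3 libraries), with toys, tunnels and hideouts that were rearranged every week, so the groups differ in housing and share strain, sex and age. The labels do not say whether each library is a separate animal, so p-values measure the spread between these libraries. The EE cages also held more mice each than the SH cages, and enrichment and group size cannot be told apart. The 6 m6A immunoprecipitation libraries of the same study were not analysed here. The table holds only genes for which the authors had found a difference between SH and EE, so neither the presence of these genes in it nor the p-values given for them are independent evidence of a difference.

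Mitochondria carry a small circular genome, transcribed as long precursors that are cut into single RNAs, mostly at the tRNAs that lie between the genes. COX1, COX2 and COX3 are the catalytic core of complex IV, which passes electrons from cytochrome c to oxygen. ATP6 and ATP8 are membrane subunits of complex V, which makes ATP from the proton gradient. ATP8 and ATP6 overlap and are translated from a shared mRNA, while most other subunits of both complexes are encoded in the nucleus. Neurons rely heavily on this pathway for the energy that synaptic transmission uses.

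In the annotation of GRCm38, the build also called mm10, the 5 genes follow each other on the same strand of the mitochondrial genome. COX1 lies at 5328 to 6872, COX2 at 7013 to 7696, ATP8 at 7766 to 7969, ATP6 at 7927 to 8607 and COX3 at 8607 to 9390. None has an intron, and the annotated genes are coding sequence from end to end. ATP8, with 204 bases the shortest, shares its last 43 bases with ATP6 and has 161 bases of its own. It is shown because reads in its overlap fit both genes, with the shared bases in capitals, the first 3 of which are the start codon of ATP6.
ATP8: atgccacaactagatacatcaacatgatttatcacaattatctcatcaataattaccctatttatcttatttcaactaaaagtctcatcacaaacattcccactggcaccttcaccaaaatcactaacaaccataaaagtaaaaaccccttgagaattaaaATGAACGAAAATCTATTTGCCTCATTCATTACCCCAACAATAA

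ATP6 and COX3 share a single base, given in capitals in the stretch around it (8587 to 8627), so the coding sequence passes from ATP8 to ATP6 and on to COX3 without a gap.
ATP6 and COX3 junction: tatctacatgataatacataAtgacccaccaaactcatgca

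The nuclear genome holds near-identical copies of these genes, which bears on every count below. A BLAST search of GRCm38 placed the largest on the minus strand of chromosome 1, at 24611535 to 24616188, matching mitochondrial bases 6390 to 11042. Of the 4063 bases from the start of COX1 to the end of COX3, 3001 were in this copy, with a single base different. That base was A6393T (mitochondrial base, position in the mitochondrial genome, base of the copy), in COX1. COX2, ATP8, ATP6 and COX3 were therefore repeated on chromosome 1 over their whole length with 0 differences, and COX1 over 483 of its 1545 bases (31.3%). The sequences below show the edge of the copy in COX1 (6370 to 6409) and on chromosome 1 (24616169 to 24616208, minus strand), where the capitals mark the stretch that both share and that contains the differing base.
COX1 at the edge: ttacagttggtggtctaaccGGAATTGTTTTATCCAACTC
Chromosome 1 at the edge: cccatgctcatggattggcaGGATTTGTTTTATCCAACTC

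A further copy on the minus strand of chromosome 2 (22587288 to 22590534) covered COX1 and COX2 with 97.36% identity over 3260 aligned bases. Shorter and less alike copies lay on chromosomes 1, 5, 9 and 11, each with at most 1116 bases of the stretch of the 5 genes. Hits on chromosome 18 and those with under 500 bases of this stretch were left out. Of all windows of 150 bases, 23.6% of those in COX1 and all of those in each of the other 4 genes were also found letter for letter in a nuclear copy. A read that lies within COX2, ATP8, ATP6 or COX3 thus fits the mitochondrial genome and chromosome 1 equally well on this build, and how such reads were counted is not given in the sources used here. Of the 13 mitochondrial protein genes, 5 have no base in the chromosome 1 copy. Of the 18 symbols searched for other mitochondrially encoded genes, 0 were in the table, so the other 8 protein genes were not analysed here.

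**Figure D1:**
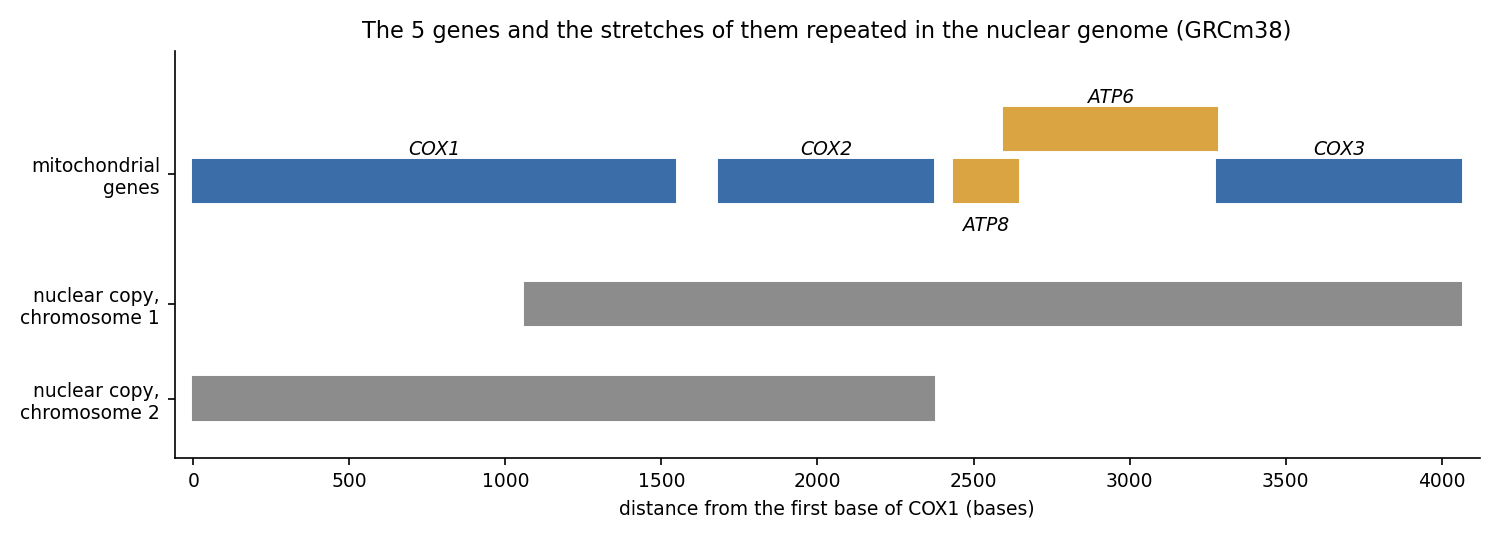
Position of the 5 genes (COX in blue, ATP synthase in yellow, ATP6 drawn higher to show its overlap with ATP8) and of the largest listed copies on chromosomes 1 and 2 (grey), in bases from the first base of COX1. The chromosome 1 copy takes in the last 483 bases of COX1 and all of the other 4 genes.

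FPKM is a read count divided by the gene's length and by the reads of the library. The library reads that the values imply were between 31969156 and 40319498 in SH and between 37507694 and 53943195 in EE. SH replicate 1 was the shallowest library and EE replicate 3 the deepest. The lengths behind the FPKM values were the full annotated lengths, 204 bases for ATP8 included.

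COX1, the subunit that holds the oxygen-binding site of complex IV, had the highest FPKM of the 584 genes. Its FPKM was 15926, 13974 and 15018 in SH replicates 1, 2 and 3 and 17447, 19639 and 16231 in EE replicates 1, 2 and 3. The groups did not overlap, but the lowest EE library was close to the highest SH library. The SH libraries averaged 14973 ± 977 (SD, n = 3) and the EE libraries 17772 ± 1727 (SD, n = 3). On the log2 scale EE was higher by 0.25 (standard error 0.10), and edgeR's quasi-likelihood test gave an unadjusted p of 0.037 and an adjusted p of 0.037. COX1 was therefore not called at p under 0.01, the p-value threshold of the study, although DESeq2 called it (0.36, unadjusted p = 5.5e-05). DESeq2 took its size factors from the 584 genes alone, and the median log2 fold change of the table was also higher by 0.11 in that fit.

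COX2, which takes the electrons from cytochrome c, was at an FPKM of 1518, 785.9 and 715.3 in SH replicates 1, 2 and 3 and at 1997, 1688 and 1007 in the EE replicates. The groups overlapped, since EE replicate 3 was below SH replicate 1, and the range within each group was larger than the difference between the group means. The SH libraries averaged 1007 ± 445 (SD, n = 3) and the EE libraries 1564 ± 506 (SD, n = 3). The log2 fold change was 0.64 (edgeR's quasi-likelihood test, standard error 0.29, unadjusted p = 0.054, adjusted p = 0.054). This was the largest adjusted p of the 584 genes. Without SH replicate 1 the log2 fold change was 1.06 (edgeR, unadjusted p = 0.00015), and with the replicate number as a block it was 0.66 (edgeR, unadjusted p = 0.0011). COX2 thus passed the threshold in those fits, although the labels give no pairing of the animals. Without EE replicate 1 it was 0.42 and without SH replicate 3 it was 0.44 (edgeR, unadjusted p = 0.16 and 0.19).

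ATP8, which holds the peripheral stalk of ATP synthase in the membrane, had the lowest FPKM of the 5 genes in all 6 libraries. It was counted with 702, 613 and 747 reads in the SH replicates and with 1135, 3247 and 4321 reads in the EE replicates. In FPKM these were 107.6, 77.9 and 90.8 in SH and 148.3, 375.7 and 392.7 in EE. All EE libraries were above all SH libraries, but EE replicate 1 was nearer to SH than to the other two EE libraries. The mean rose from 92.1 ± 14.9 (SD, n = 3) to 305.6 ± 136.4 (SD, n = 3), a ratio of 3.32. Its log2 fold change, 1.74 (edgeR's quasi-likelihood test, standard error 0.30, adjusted p = 0.014), was the highest of the 584 genes and stayed between 1.51 and 2.06 with each library left out.

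ATP6, which forms the proton path of ATP synthase together with the nuclear c-ring, was at an FPKM of 1692, 748.3 and 1063 in SH replicates 1, 2 and 3 and at 2054, 2243 and 1765 in the EE replicates. The groups did not overlap, with 1692 in SH replicate 1 just under 1765 in EE replicate 3. The mean rose from 1168 ± 481 (SD, n = 3) to 2021 ± 241 (SD, n = 3), or by 0.79 on the log2 scale (edgeR's quasi-likelihood test, standard error 0.23, adjusted p = 0.016). The unadjusted p was 0.0067 in edgeR. With a single library left out it passed the threshold in 3 of 6 fits and missed it without SH replicate 2 (0.012), SH replicate 3 (0.029) or EE replicate 2 (0.027). With all libraries it also missed the threshold in DESeq2 (0.90, unadjusted p = 0.016) and in limma on log2(FPKM + 0.1) (0.86, unadjusted p = 0.013).

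COX3, the third core subunit of complex IV, was at an FPKM of 620.5, 468.8 and 402.4 in SH replicates 1, 2 and 3 and at 546.1, 605.0 and 799.6 in the EE replicates. Both EE replicate 1 and EE replicate 2 were below SH replicate 1, so the groups overlapped. The SH libraries averaged 497 ± 112 (SD, n = 3) and the EE libraries 650 ± 133 (SD, n = 3). The log2 fold change was 0.39 (edgeR's quasi-likelihood test, standard error 0.16, unadjusted p = 0.040). Without SH replicate 1 it was 0.58 and without EE replicate 1 it was 0.50, with unadjusted p-values of 0.00065 and 0.0083 in edgeR, both under the threshold. Without SH replicate 3 it was 0.26 and without EE replicate 3 it was 0.21, with unadjusted p-values of 0.16 and 0.20 in edgeR.

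**Figure D2:**
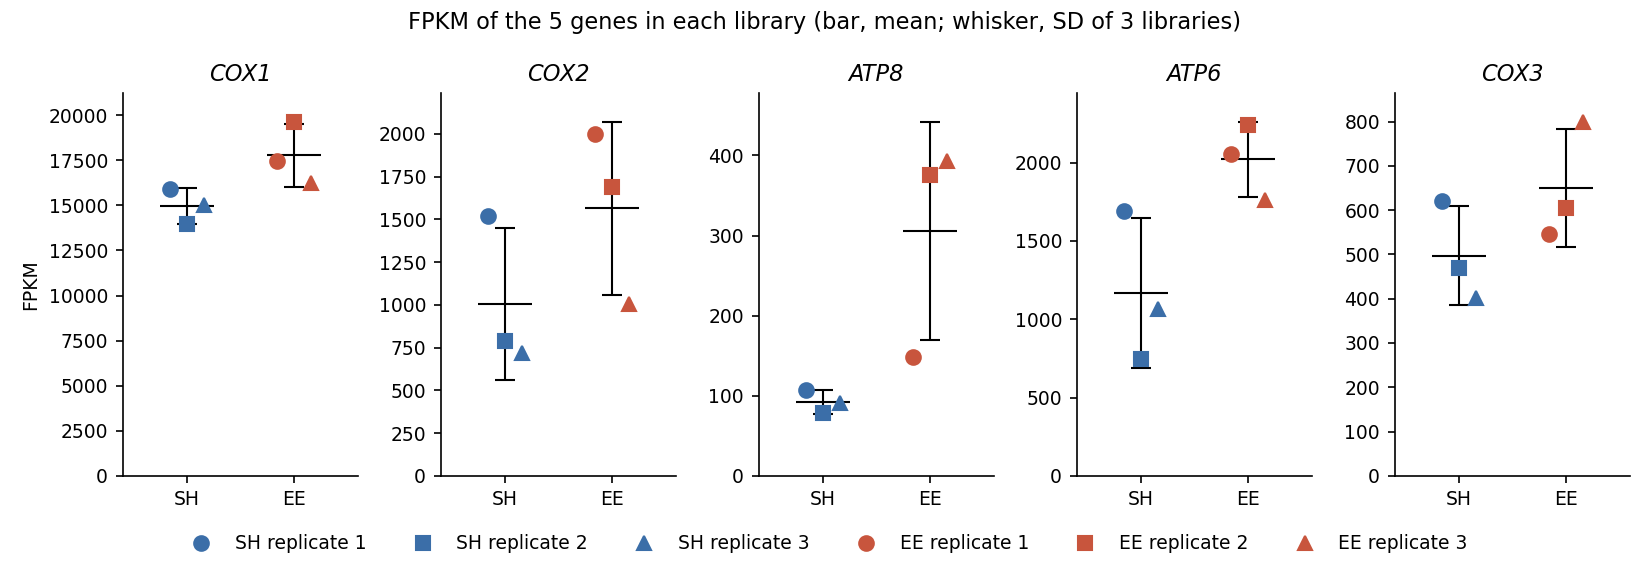
FPKM of each gene in the 3 SH (blue) and 3 EE (red) libraries, with a separate linear axis from 0 for each gene, the mean as a bar and the SD as a whisker. SH replicate 1 (blue circle) is the highest SH library in all 5 genes, and the groups overlap in COX2 and COX3.

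Read together, all 5 genes had a higher mean FPKM in EE, as had 42.1% of the table. Of the 5, 2 (ATP8 and ATP6) were called at an unadjusted p under 0.01 in edgeR, where 59.8% of the table was called in either direction and 19.2% as higher in EE. In 3 of the 5 (COX1, ATP8 and ATP6) the lowest EE library was above the highest SH library, which was so in 37.2% of the table. At an adjusted p under 0.05, 4 of the 5 passed, against 99.8% of the table. The median log2 fold change was 0.64 over the 5 genes, -0.18 over the table and 0.21 over the 246 genes with a higher mean in EE. In order along the mitochondrial genome the log2 fold changes were 0.25, 0.64, 1.74, 0.79 and 0.39, with the highest at ATP8 in the middle. The range of a standard error around COX2 takes in the values of ATP6 and COX3, so the order of COX2 beside them is not settled.

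**Figure D3:**
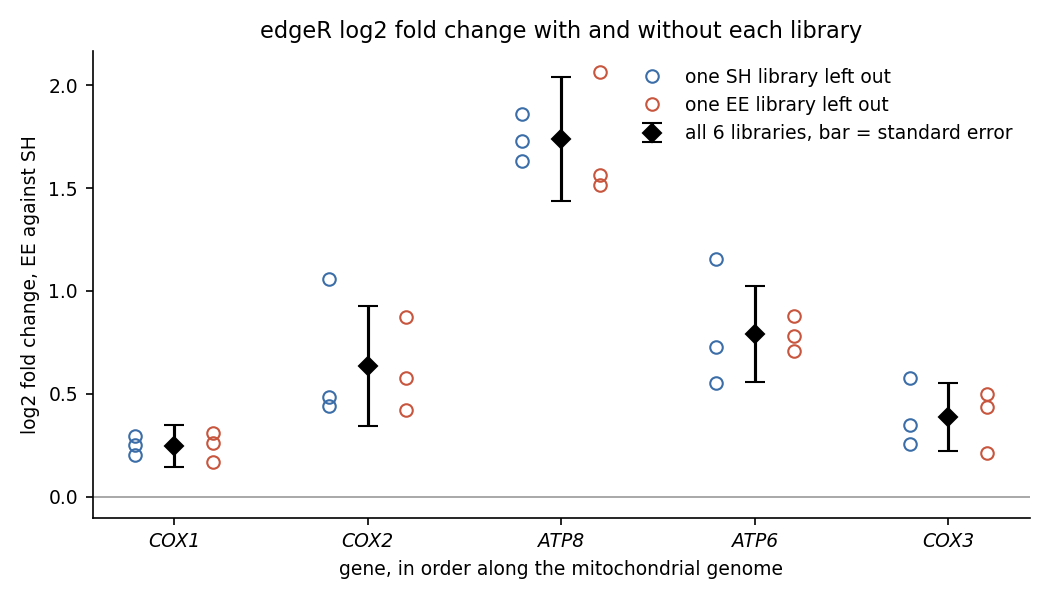
edgeR log2 fold change of EE against SH for each gene, in order along the mitochondrial genome, from all 6 libraries (black diamond, bar for the standard error) and with a single SH (blue) or EE (red) library left out. ATP8 stays above 1.5 throughout, and COX2 moves from 0.42 to 1.06.

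SH replicate 1 was the highest SH library in 5 of the 5 genes, and it was also the shallowest library. The part of depth in this was not tested. In EE the highest library differed between genes, since COX2 was highest in replicate 1, COX1 and ATP6 in replicate 2, and ATP8 and COX3 in replicate 3. The call count moved with this library, from 2 of the 5 genes with all libraries to 4 without SH replicate 1, and it was 1 without SH replicate 2, SH replicate 3 or EE replicate 2. Over the 584 genes, 349 were called with all libraries, 242 without SH replicate 1, 165 without SH replicate 2, 266 without SH replicate 3 and 135 without EE replicate 2.

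The 5 genes together took 2.731%, 2.302% and 2.475% of all reads in the SH replicates and 3.018%, 3.358% and 2.767% in the EE replicates. The EE libraries were all above the SH libraries, with a mean of 3.048% ± 0.296 (SD, n = 3) against 2.503% ± 0.216 (SD, n = 3). The difference of 0.545 percentage points had an exact permutation p of 0.1 (two-sided), the smallest that 3 libraries against 3 can give, so no comparison of this kind can pass 0.05. COX1 made up between 89.3% and 93.8% of these reads, so the sum is largely a measure of COX1. COX2, ATP8, ATP6 and COX3 alone took 0.270%, 0.143% and 0.155% of all reads in the SH replicates and 0.322%, 0.323% and 0.260% in the EE replicates. Here the groups overlapped at SH replicate 1, and the exact permutation p was 0.2 (two-sided). As the tissue was sampled in bulk, more mitochondrial RNA per cell and more cells rich in mitochondria cannot be told apart.

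Compared per length, the order of the 5 levels was COX1, ATP6, COX2, COX3 and ATP8 in 5 of the 6 libraries. In SH replicate 2 COX2 was above ATP6, at 105.0% of its FPKM. In the other libraries COX2 was between 57.1% and 97.2% of ATP6, and a difference between their levels was not tested. COX3 was between 27.3% and 79.4% of COX2, and ATP8 between 16.6% and 62.1% of COX3. The gap below COX1 was wide, since ATP6 was between 5.35% and 11.8% of COX1 and COX2 between 4.76% and 11.4%. COX1 is also the only gene of the 5 with sequence outside the chromosome 1 copy (1062 bases), and the part of the copy in these level differences was not tested.

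Ratios within a library do not depend on its depth. ATP8 was 0.676%, 0.557% and 0.605% of COX1 in the SH replicates, a narrow range, and 0.850%, 1.91% and 2.42% in the EE replicates. The groups did not overlap, and the log2 ratio differed by 1.37 between EE and SH. ATP6 was 10.6%, 5.35% and 7.08% of COX1 in SH and 11.8%, 11.4% and 10.9% in EE, also without overlap, with a difference of 0.62 on the log2 scale, or 0.39 without SH replicate 2. The ATP6 to COX1 ratio was the steadiest of the 10 pairs within EE (SD of the log2 ratio 0.06), and in SH its SD was 0.50. ATP8 relative to COX3 was 17.3%, 16.6% and 22.6% in SH and 27.2%, 62.1% and 49.1% in EE, a log2 difference of 1.22. These 3 of the 10 pairs had the smallest possible exact permutation p of 0.1 (two-sided), or 0.333 with Benjamini-Hochberg adjustment over the 10 pairs. The log2 ratios of COX2 and of COX3 to COX1 differed between EE and SH by 0.42 and 0.15, with overlap and exact permutation p-values of 0.4 and 0.7. For COX2 it was 0.71 without SH replicate 1, 0.65 without EE replicate 3, 0.21 without SH replicate 3 and 0.20 without EE replicate 1.

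For ATP8 and ATP6 the ratio is one of assigned reads, since 43 of the 204 bases of ATP8 also belong to ATP6, both genes are repeated on chromosome 1, and how such reads were assigned is not given in the sources used here. ATP8 was 6.36%, 10.4% and 8.54% of ATP6 in the SH replicates and 7.22%, 16.8% and 22.2% in the EE replicates. EE replicate 1 lay within the SH range and the other two EE libraries above it, with a log2 difference of 0.75 and an exact permutation p of 0.3 (two-sided). This difference was 0.41 without EE replicate 3 and 1.22 without EE replicate 1. COX3 relative to COX2 went from 27.3% in EE replicate 1 to 79.4% in EE replicate 3, a wider range than the 40.9% to 59.6% of the SH libraries. The ratio of COX3 to COX1 differed by -0.075 on the log2 scale without EE replicate 3 and that of COX3 to COX2 by 0.049 without EE replicate 1, so the sign of both rested on a single library.

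**Figure D4:**
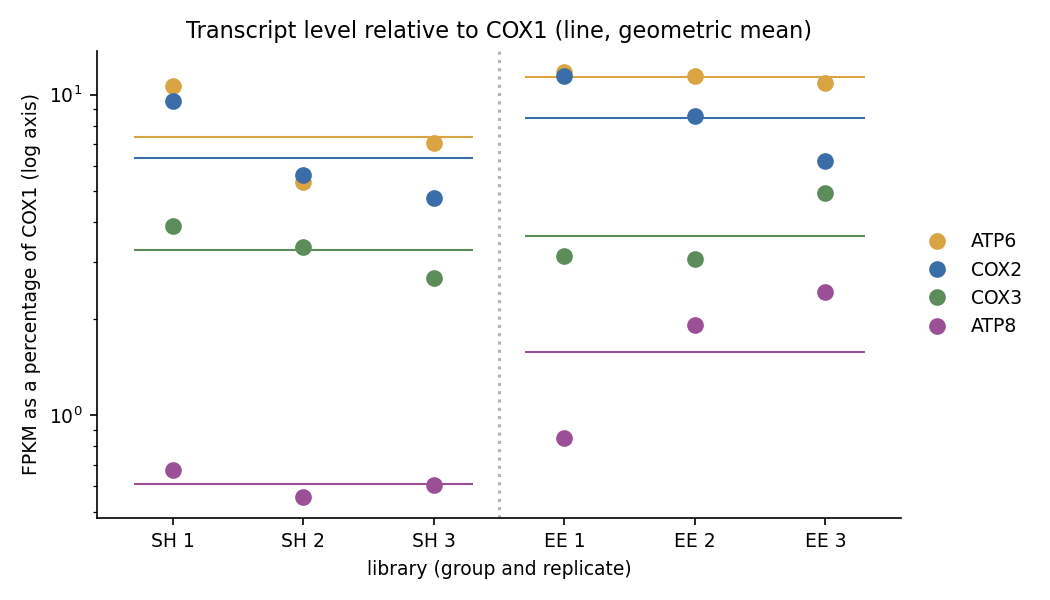
FPKM of ATP6, COX2, COX3 and ATP8 as a percentage of COX1 in each library on a log axis, with the geometric mean of each group as a line. ATP8 lies between 0.557% and 0.676% in SH and between 0.850% and 2.42% in EE, and ATP6 is nearly level across the EE libraries.

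For COX1 the coefficient of variation was 6.52% in SH and 9.72% in EE, and counting error alone would give 0.108% and 0.0907%. For ATP8, the gene with the fewest reads, it was 16.2% in SH and 44.7% in EE, where counting error would give 3.81% and 1.86%. These values set the spread between separate samples beside counting error alone, and the part of depth in the spread was not tested.

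For the genes other than COX1 the spread was also wide beside the rest of the table. The table was chosen by a difference between SH and EE, which favours a small spread within groups. It is thus no measure of the spread of expressed genes in general. The SD of log2(FPKM + 0.1) over the 3 libraries had a median of 0.07 in SH and 0.07 in EE over the 584 genes. It was 0.59 for COX2 and 0.59 for ATP6 in SH, where 6 and 7 genes of the table had a larger one. In EE it was 0.79 for ATP8, which 1 gene exceeded, and 0.51 for COX2, which 3 genes exceeded. The SH spread of ATP8 (0.23) was below its EE spread but still exceeded by 36 genes only, and ATP6 had a smaller spread in EE (0.18) than in SH. With COX3 at 0.32 and 0.29 and COX1 at 0.09 and 0.14, COX1 was the closest of the 5 to the median of the table. With 3 libraries a group a difference in spread was not tested.

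**Figure D5:**
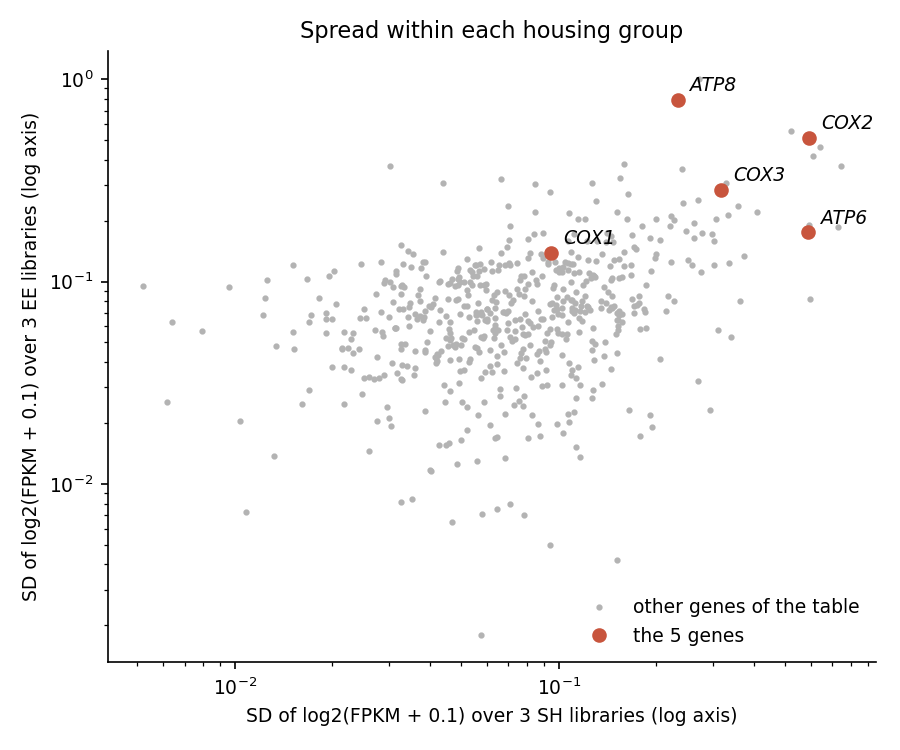
SD of log2(FPKM + 0.1) over the 3 SH libraries (horizontal) and the 3 EE libraries (vertical) for the 584 genes, both on log axes, with the 5 genes in red. ATP8 is high in EE (0.79), ATP6 in SH (0.59) and COX2 in both (0.59 and 0.51).

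The genes with the profile nearest to each of the 5 were sought among the other 579 genes of the table. The measure was the root mean square difference of log2(FPKM + 0.1), centred on its mean over the 6 libraries. Such a profile keeps the difference between EE and SH by which the table was chosen, and shared regulation was not tested. For COX1 the nearest was the predicted gene Gm14305 (0.02 on the log2 scale), followed by LOC108168936 (0.06) and Dusp6 (0.06), which encodes a phosphatase of ERK kinases. For COX2 they were Egr2 (0.19), Nr4a1 (0.28) and Egr1 (0.32), 3 transcription factor genes induced by neuronal activity, and for ATP6 Egr2 (0.22), the lncRNA B230110G15Rik (0.26) and Nr4a1 (0.28). Nr4a1 had an FPKM of 9.37, 5.97 and 5.93 in SH and of 9.98, 10.01 and 8.51 in EE, so SH replicate 1 lay near the EE libraries there too. For COX3 they were Wnt2 (0.16), Hdx (0.18) and Htr4 (0.19). The 579 genes had a median difference of 0.25 from COX1, 0.62 from COX2, 0.64 from ATP6 and 0.37 from COX3.

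For ATP8 the nearest gene was Amd2 (0.36, with a median of 1.01 over the 579 genes), which encodes an S-adenosylmethionine decarboxylase and has a close paralog. Its FPKM was 0.195, 0.283 and 0.325 in SH and 0.275, 1.14 and 1.17 in EE, so its EE replicate 1 lay within the SH range, where that of ATP8 lay above it, and EE replicates 2 and 3 were high in both genes. Several of these neighbours rested on few reads, with between 20 and 202 a library for Amd2, 26 and 66 for B230110G15Rik, 75 and 336 for Egr2 and 83 and 171 for LOC108168936. Mylk3 (0.58, between 57 and 225 reads) and the read-through gene Synj2bp-cox16 (0.65, between 37 and 110 reads) came next. Among the 5 genes themselves, which that search left out, COX1 and COX3 were nearest to each other (0.28), followed by COX2 and ATP6 (0.31), and COX2 and ATP8 were farthest apart (0.88). ATP6 was thus nearer to COX2 than Egr1 was, and at 0.65 about as near to ATP8 as Synj2bp-cox16.

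Of the rest of the pathway, 0 of the 36 symbols searched for nuclear subunits and assembly factors of complex IV were in the table. Of the ATP synthase symbols, 1 of 42 was there. This was Usmg5, a small membrane subunit of ATP synthase, with an FPKM of 979.8, 904.1 and 1193 in SH and of 1259, 1424 and 1140 in EE. The groups overlapped, and the log2 fold change was 0.31 (standard error 0.11, unadjusted p = 0.015 from edgeR), so it was not called at p under 0.01.

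Of the 50 symbols for complexes I to III and cytochrome c, 4 were in the table, and 1 was called as higher and 3 as lower in EE, beside 59.8% of the table called in either direction and 19.2% as higher. Cycs, which encodes the cytochrome c that feeds complex IV, rose from 64.5 ± 4.26 (SD, n = 3) to 81.2 ± 8.01 (SD, n = 3), a log2 fold change of 0.33. Uqcr11 of complex III fell by 0.31, and Ndufb11 and Ndufb10 of complex I fell by 0.24 and 0.17 on the log2 scale. Their unadjusted p-values in edgeR lay between 0.0012 for Cycs and 0.0078 for Ndufb11. With each library left out in turn, Cycs was called in 6 of 6 fits, Uqcr11 in 5, and Ndufb10 and Ndufb11 in 2 each.

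Of the 36 symbols for transcription, processing and upkeep of mitochondrial RNA and DNA, 2 were in the table. Esrra, an orphan nuclear receptor that activates nuclear genes of oxidative metabolism, fell from 8.99 ± 0.31 (SD, n = 3) to 7.43 ± 0.55 (SD, n = 3), a log2 fold change of -0.27 (unadjusted p = 0.0044 from edgeR), called in 3 of 6 fits with a library left out. Fastkd5, which takes part in the processing of mitochondrial precursor RNA, averaged 3.45 ± 0.18 (SD, n = 3) in the SH libraries and 4.11 ± 0.26 (SD, n = 3) in the EE libraries. The groups did not overlap, and the log2 fold change was 0.25. Its unadjusted p of 0.012 in edgeR was above 0.01.

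Of the 24 cell type markers searched, 3 were in the table, so the hippocampal label could not be checked against neuronal markers, of which 0 of 6 were there. The astrocyte marker Aldh1l1 fell by 0.21 and the endothelial marker Cldn5 fell by 0.44 on the log2 scale. The microglial marker P2ry12 rose by 0.24. All 3 were called in edgeR (unadjusted p between 0.0024 and 0.0060), as was 59.8% of the table in either direction. With a library left out, these calls held in 2 of 6 fits for Aldh1l1 and in 4 of 6 for Cldn5 and P2ry12. Each was 1 gene of its list (of 4 for astrocytes, 3 for endothelium and 4 for microglia), and 0 of 4 oligodendrocyte and 0 of 3 choroid plexus markers were in the table. The part of cell composition in the levels of the 5 genes was not tested.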

How the data were processed

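The authors aligned reads with Hisat2 (genome mm10), used FeatureCounts for the reads of each gene, computed FPKM from count, gene length and library reads, and deposited the raw count and FPKM of each library for 584 genes. The deposited table also holds a p-value and a log2 fold change per gene from their own comparison, which were not used. The library kit was a NEBNext RNA kit; strand use in counting is not given in the sources used here. Groups came from the labels, and the members and lists were chosen with earlier results of these data known.

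Library totals were computed from count over FPKM and RefSeq exon lengths (193 genes gave the same total within 0.001%). All 584 genes were fitted with edgeR 4.0.16 (quasi-likelihood, totals as library sizes, no filter, R 4.3.3), with Benjamini-Hochberg adjustment over the table. Calls use an unadjusted p under 0.01. Standard errors are the log2 fold change over the square root of F. Shares and ratios used exact permutation tests (SciPy 1.17.1). The FPKM ratios carry no pseudocount, and log2 spread and profiles used a pseudocount of 0.1. The edgeR step was tested on simulated data. Nuclear copies were found with BLAST 2.17.0 (e-value limit 1e-20). Sequences and coordinates are from RefSeq for GRCm38. All 5 members are named, with each listed gene found in the table and the 3 nearest profiles of each member. Alternatives were TMM factors, totals without the 5 genes, DESeq2 1.42.0, limma 3.58.1 on log2(FPKM + 0.1) and log2(FPKM + 1), a low-count filter, the replicate number as a block and each library left out.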

Additional observations from a re-analysis of the deposited data

How the results depend on the processing

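The direction of the edgeR log2 fold change was the same in all 65 alternatives run for the 5 genes, and 55 of them also stayed on the same side of the threshold. In DESeq2, with size factors from the 584 genes alone, the median log2 fold change of the table was higher by 0.11. DESeq2 gave COX1 0.36 (unadjusted p = 5.5e-05, now called) and ATP6 0.90 (unadjusted p = 0.016, no longer called). limma on log2(FPKM + 0.1) gave ATP6 0.86 (unadjusted p = 0.013) and called 1 of the 5 genes in place of 2, with 258 of the table in place of 349. With each library left out, the log2 fold change ran from 0.17 to 0.31 for COX1, from 0.42 to 1.06 for COX2, from 1.51 to 2.06 for ATP8, from 0.55 to 1.16 for ATP6 and from 0.21 to 0.58 for COX3, and between 1 and 4 of the 5 genes were called, where between 135 and 324 of the table were. The low-count filter removed 0 genes. Leaving out a library turned the sign of 2 of the 10 ratios, COX3 over COX1 (-0.075 to 0.273) and COX3 over COX2 (-0.72 to 0.049), and the cause was not tested.

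With the replicate number as a block, COX2 was called (0.66, unadjusted p = 0.0011 in edgeR) and 3 of the 5 genes were under 0.01, against 214 of the table in place of 349. Deviations of same-numbered libraries over the other 579 genes correlated by 0.18, 0.00 and -0.14 for numbers 1, 2 and 3. Those of unlike-numbered libraries ran from -0.27 to 0.26, so these values cannot tell whether the numbers pair animals. In shares and ratios a sign-flip test over 3 pairs cannot go below 0.25. The self-made totals and the FPKM share the authors' counting, so reads that fit both the mitochondrial genome and its nuclear copies limit all settings alike.

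Over the 584 genes of the table, the number called at p under 0.01 was 135 without EE replicate 2, 140 without EE replicate 1 and 165 without SH replicate 2. It was 242 without SH replicate 1, 266 without SH replicate 3 and 324 without EE replicate 3.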
